A study of Mus musculus with 6 samples.

Results

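The mitochondrial ribosomal protein genes were examined in gastrocnemius, a calf muscle, of mice with and without the kinase TAK1. Members were all genes on the array with a symbol beginning Mrpl (large subunit) or Mrps (small subunit) followed by a number, and measured by a probe set that names no other gene. This gave 71 of the 22180 genes tested, 43 of the large and 28 of the small subunit. The control group was 3 mice with floxed TAK1 alleles, and the knockout group was 3 littermates in which TAK1 had been deleted in skeletal muscle only, sampled 3 weeks after deletion. The labels give no age or sex, and do not name the promoter that drove deletion. Each mouse gave 1 Affymetrix array of whole-muscle RNA, so fewer cells of a type and less RNA per cell cannot be told apart, and the muscle's other cells still carry TAK1.

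Mitochondria carry their own ribosome, which makes the few membrane proteins of the respiratory complexes that mitochondrial DNA encodes. Its RNA comes from mitochondrial DNA, but all its proteins are encoded in the nucleus, made in the cytosol and imported. The small subunit reads the messenger RNA and the large subunit joins the amino acids. Some of the proteins descend from bacterial ribosomal proteins, and others were added during the evolution of mitochondria. Skeletal muscle depends on this ribosome because its fibres need respiration for sustained work, and inherited defects of several members cause cardiomyopathy or other mitochondrial disease.

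Promoters of the members are shown first, because the nuclear factors NRF1, GABP (an ETS family factor) and YY1 are the textbook regulators of such genes. RefSeq promoter windows, which run from 250 bases before to 50 bases after a transcription start on GRCm38.p6, were found for 62 of the 71 members (68 windows). The motif letters searched on both strands were GCATGCG for NRF1, CCGGAAG for ETS factors and GATGGCG for YY1, and none of the 3 contains another. The 5 windows below belong to the only 2 members with an unadjusted p under 0.05 (limma, described below), Mrps30 and Mrpl20, and to the member with the largest difference among those holding each motif. Capitals mark the motif matches, and all windows read in the direction of the gene. The coordinates are chr13:118387203-118387502, minus strand (Mrps30), chr4:155802628-155802927, plus strand (Mrpl20), chr16:84735195-84735494, minus strand (Mrpl39), chr6:39810887-39811186, minus strand (Mrps33) and chr6:71823735-71824034, minus strand (Mrpl35).
Mrps30: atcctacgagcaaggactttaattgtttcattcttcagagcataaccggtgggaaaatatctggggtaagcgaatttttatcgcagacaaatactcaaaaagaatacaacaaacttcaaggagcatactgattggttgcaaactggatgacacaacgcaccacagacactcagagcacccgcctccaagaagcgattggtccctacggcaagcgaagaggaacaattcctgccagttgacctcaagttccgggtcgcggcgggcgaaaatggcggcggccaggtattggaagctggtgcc
Mrpl20: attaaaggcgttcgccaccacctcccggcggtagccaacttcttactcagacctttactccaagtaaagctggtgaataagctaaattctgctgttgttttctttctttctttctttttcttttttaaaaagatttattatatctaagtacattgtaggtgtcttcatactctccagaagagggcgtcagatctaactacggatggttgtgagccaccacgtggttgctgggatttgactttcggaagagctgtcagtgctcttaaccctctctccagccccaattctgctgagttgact
Mrpl39: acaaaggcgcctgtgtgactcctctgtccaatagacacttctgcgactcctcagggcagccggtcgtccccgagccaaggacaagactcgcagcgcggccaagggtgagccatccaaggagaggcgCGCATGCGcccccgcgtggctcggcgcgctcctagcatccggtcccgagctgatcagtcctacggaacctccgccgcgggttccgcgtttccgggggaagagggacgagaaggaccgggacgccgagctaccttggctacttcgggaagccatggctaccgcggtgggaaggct
Mrps33: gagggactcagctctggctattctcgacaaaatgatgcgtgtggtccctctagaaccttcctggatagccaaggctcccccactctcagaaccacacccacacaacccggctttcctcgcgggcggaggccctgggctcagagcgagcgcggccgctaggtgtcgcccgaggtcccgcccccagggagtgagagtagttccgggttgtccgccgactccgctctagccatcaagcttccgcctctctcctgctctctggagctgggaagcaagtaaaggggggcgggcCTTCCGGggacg
Mrpl35: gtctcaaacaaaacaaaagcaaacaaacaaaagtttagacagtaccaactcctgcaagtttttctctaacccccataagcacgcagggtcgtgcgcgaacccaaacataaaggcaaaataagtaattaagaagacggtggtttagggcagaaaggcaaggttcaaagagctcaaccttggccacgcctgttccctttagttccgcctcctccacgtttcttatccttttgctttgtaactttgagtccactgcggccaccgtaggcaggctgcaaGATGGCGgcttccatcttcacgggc

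The Mrpl39 window held the NRF1 letters on both strands, in overlapping matches that begin 124 and 123 bases before the start. The Mrps33 window held the ETS letters on the opposite strand, beginning 38 bases after the start, and the Mrpl35 window held the YY1 letters 25 bases after it. The Mrps30 and Mrpl20 windows held none of the 3, which says only that these letters are not in these windows. The ETS letters were in 33.8% of member windows against 8.86% of all 32851 windows, the NRF1 letters in 10.3% against 3.58% and the YY1 letters in 11.8% against 3.49%. Member windows were richer in G and C (median 58.5% against 52.7%), and the part of base composition in these shares was not tested. The 33 members with at least 1 motif had a median log2 fold change of 0.036, and the 29 members with none had 0.062.

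None of the 71 members passed the test in either direction, 0 higher and 0 lower. Over all genes, 21 of 22180 (0.0947%) had an adjusted p under 0.05 in limma, with Benjamini-Hochberg adjustment over all genes, 0.0406% higher and 0.0541% lower in knockout muscle. The unadjusted p was under 0.05 for 2 members, against 8.04% of all genes. The smallest adjusted p among members was 0.487. On the linear scale the differences lay between 1.22-fold lower and 1.23-fold higher in knockout muscle. For 70 of the 71 members the 95% confidence interval of the difference lay inside 1.5-fold in either direction. The exception was Mrps14, whose interval reached 0.59 on the log2 scale and whose group means were below background (defined below). These intervals hold for one gene at a time and are not adjusted for the number of genes. In simulated data with the same numbers of arrays and noise independent between genes, 43.6% of 1.5-fold and 1.6% of 1.2-fold changes were called.

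**Figure D1:**
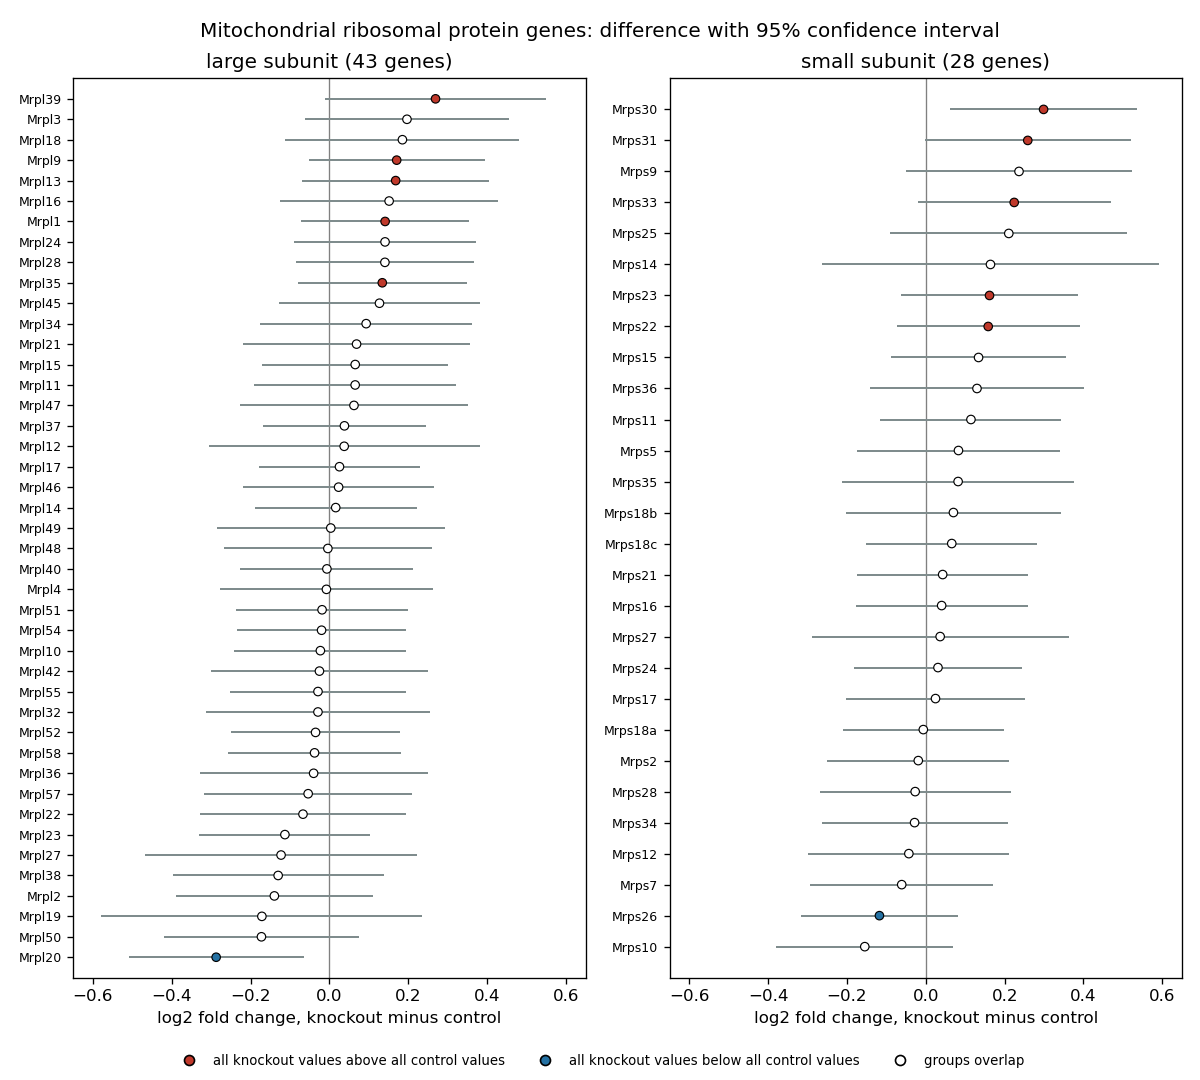
Log2 fold change (knockout minus control) of each of the 43 large and 28 small subunit genes, with horizontal lines for the 95% confidence interval from limma (3 arrays per group). Filled circles mark members whose groups do not overlap (red, knockout higher, blue, knockout lower), and the interval excludes 0 only for Mrps30 and Mrpl20.

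Large subunit genes were divided evenly, with 22 higher and 21 lower in knockout muscle and a median log2 fold change of 0.0036. Of the 28 small subunit genes 20 were higher and 8 lower, with a median of 0.068. The subunits follow the symbols here, and an alternative in the closing section counted Mrps18a and Mrps30 in the large subunit. Over all genes 49.9% were higher, and the median was −0.00032. With both group means above background, 47.1% of all genes were higher (median −0.0094), and 58.8% of the 68 such members (median 0.034). The difference between the subunits was not tested. An unadjusted p under 0.05 was reached by 1 member above control (3.93% of all genes) and 1 below (4.12% of all genes). The groups did not overlap for 10 members higher in knockout (14.1%, against 6.74% of all genes). For 2 members they did not overlap with lower knockout values (2.82%, against 6.65% of all genes). With both group means above background, these shares were 14.7% and 2.94% of members, against 7.62% and 8.22% of all genes.

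Mrps30 had the largest positive difference. It is numbered with the small subunit, but structures of the mammalian ribosome place it in the large one. On probe set 17296476 the controls measured 8.14, 7.92 and 8.11 (log2) and the knockouts 8.45, 8.31 and 8.31. All 3 knockout values lay above all 3 control values, and control 2 was lowest. The means were 8.06 ± 0.12 and 8.36 ± 0.08 (SD, n = 3), 1.23-fold higher in knockout (log2 fold change 0.30, SE 0.10, 95% interval 0.06 to 0.54, limma adjusted p = 0.506). The lowest and highest log2 fold changes with 1 array left out were 0.23 and 0.34.

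Mrps31, a small subunit protein found only in mitochondria, had log2 levels of 8.38, 8.71 and 8.70 in controls and 8.82, 8.86 and 8.88 in knockouts. Its groups did not overlap, and control 1 stood well below every other array. The log2 fold change was 0.26 (SE 0.11, limma adjusted p = 0.622) and 0.15 without control 1. Mrps9, a relative of a bacterial protein of the small subunit head, had control values of 8.23, 8.61 and 8.52 and knockout values of 8.57, 8.78 and 8.72. Its groups overlapped, with control 2 above knockout 1, and the log2 fold change was 0.24 (adjusted p = 0.707 in limma), or 0.12 without control 1. Mrps33, also mitochondria-specific, had 8.16, 8.44 and 8.34 in controls and 8.55, 8.61 and 8.46 in knockouts. Its groups were separate but close, control 2 lying just under knockout 3. The Mrps33 log2 fold change was 0.22 (adjusted p = 0.653 in limma), or 0.15 without control 1. The highest values with 1 array left out were 0.31 for Mrps31, 0.32 for Mrps9 and 0.29 for Mrps33.

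Mrpl39, a mitochondria-specific protein, had the largest positive difference in the large subunit. The controls measured 8.69, 9.05 and 9.05 (log2), and the knockouts 9.28, 9.19 and 9.14. Every knockout array was above every control array, and control 1 was far the lowest. The mean was 1.21-fold higher in knockout (log2 fold change 0.27, SE 0.12, 95% interval −0.01 to 0.55, limma adjusted p = 0.638), and the log2 fold change was 0.15 without control 1. Mrpl3, which lies near the site of peptide bond formation and is mutated in a form of cardiomyopathy, had 8.48, 8.84 and 8.71 in controls and 8.84, 8.90 and 8.88 in knockouts (log2 fold change 0.20, limma adjusted p = 0.742, and 0.098 without control 1). Control 2 and knockout 1 were nearly equal, so the groups were not separate. Mrpl18, a protein of the central protuberance, had 9.62 in control 1 and 9.95 to 10.16 on the other arrays, the lowest of these being knockout 3. Its log2 fold change of 0.19 fell to 0.057 without control 1. The highest values with 1 array left out were 0.33 for Mrpl39, 0.28 for Mrpl3 and 0.25 for Mrpl18. Mrpl9, of bacterial descent, had 8.14, 8.28 and 8.13 in controls and 8.31, 8.44 and 8.30 in knockouts, without overlap (log2 fold change 0.17, limma adjusted p = 0.738).

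**Figure D2:**
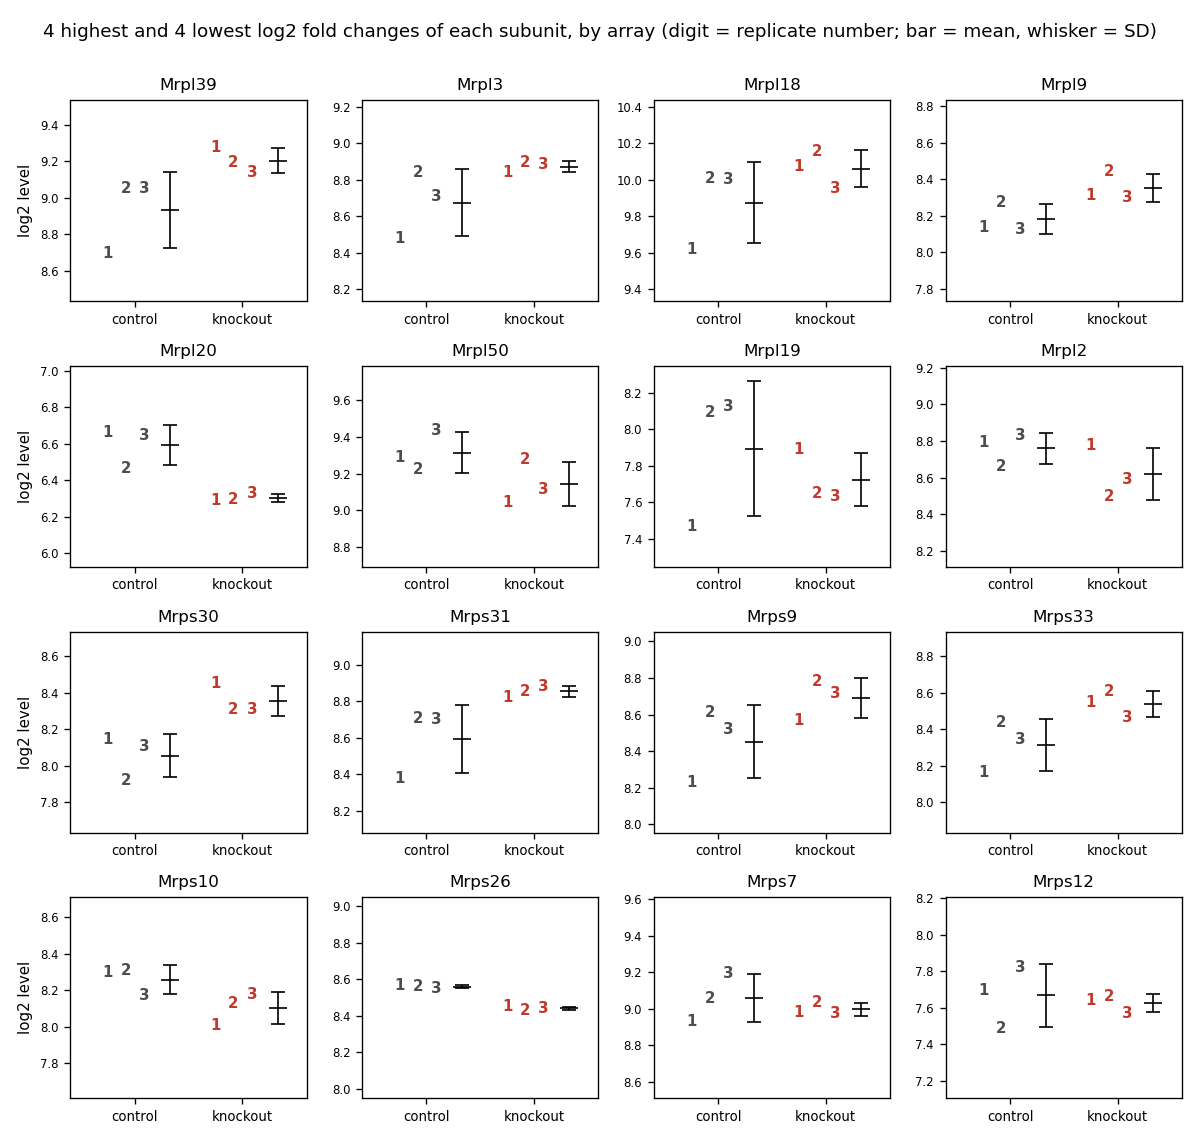
Log2 level on each array for the 4 members of each subunit with the highest and the 4 with the lowest log2 fold changes (digits are replicate numbers, bars the mean and whiskers the SD of 3 arrays, and every panel spans 1.1 log2 units). Control 1 is the lowest point in Mrpl39, Mrpl3, Mrpl18, Mrps31, Mrps9 and Mrps33, and also in Mrpl19 and Mrps7 among the members with lower knockout values, but not in the other members shown.

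The other members with separate groups and higher knockout values were Mrpl1, Mrpl13, Mrpl35, Mrps22 and Mrps23, with log2 fold changes from 0.13 to 0.17. Mrps22, in which variants cause mitochondrial disease, had 7.42, 7.68 and 7.62 in controls and 7.72, 7.75 and 7.72 in knockouts. Its knockout values lay closer together (SD 0.017) than its control values (SD 0.13), with control 1 lowest. Its log2 fold change of 0.16 was 0.083 without that array, and at most 0.21 with 1 array left out. Of the 10 members with separate groups and higher knockout values, control 1 was the lowest array in 7. In such members the lowest array is a control by definition.

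Mrpl20 had the largest negative difference of all members. Its bacterial relative is needed to assemble the large subunit. On probe set 17422697 the controls measured 6.66, 6.46 and 6.65 (log2) and the knockouts 6.29, 6.29 and 6.33. The knockouts were close to each other, and the highest of them was under the lowest control. The means were 6.59 ± 0.11 and 6.30 ± 0.02 (SD, n = 3), 1.22-fold lower in knockout (log2 fold change −0.29, SE 0.10, 95% interval −0.51 to −0.06, limma adjusted p = 0.487). With 1 array left out the log2 fold change ran from −0.35 to −0.25. Mrps26, a mitochondria-specific protein, was the other member with lower, separate knockout values. It had 8.56, 8.56 and 8.55 in controls and 8.45, 8.43 and 8.44 in knockouts, a difference of −0.12 (limma adjusted p = 0.808). Its groups varied little (SD 0.0081 and 0.0098, n = 3), a variance that limma moderates towards the variance of all genes.

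The remaining large subunit members at the low end overlapped between groups. Mrpl50, found only in mitochondria, had a log2 fold change of −0.17, and Mrpl2, a relative of a bacterial protein close to the peptide bond site, had −0.14. Without control 3 the Mrpl50 value was −0.11, and without knockout 2 the Mrpl2 value was −0.08. Mrpl19, which lies at the subunit interface, had the widest control spread of any member, with 7.47, 8.09 and 8.12 against knockout values of 7.89, 7.65 and 7.63. Control 1 was below and the other controls above all knockouts. Its log2 fold change was −0.17 ± 0.18 (SE) and −0.38 without control 1 (limma adjusted p = 0.872 and 0.575). In the small subunit, Mrps10, Mrps7 and Mrps12 had log2 fold changes of −0.15, −0.06 and −0.04. Mrps12 forms part of the decoding site, and its control values (7.69, 7.49 and 7.82) enclosed all 3 knockout values (7.64, 7.66 and 7.57).

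Members with a role beyond the core structure showed small differences as well. Mrpl12 forms the flexible stalk that recruits translation factors and also binds the mitochondrial RNA polymerase. It had 7.74, 8.34 and 8.17 in controls and 8.12, 8.18 and 8.07 in knockouts, a log2 fold change of 0.04 that was −0.13 without control 1. Mrpl11, at the base of the stalk, had a log2 fold change of 0.07. Mrpl58, a hydrolase that frees stalled ribosomes, had −0.04. The paralogues Mrps18a, Mrps18b and Mrps18c had −0.0064, 0.07 and 0.07, and Mrps34, another gene of mitochondrial disease, −0.03. The adjusted p in limma ran from 0.924 to 0.994 over these 7 genes. Mrps36, now assigned to the 2-oxoglutarate dehydrogenase complex, had levels below background on all arrays (4.63 to 5.05).

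The split by ancestry ran in opposite directions in the subunits. In the large subunit, 17 of 28 members with a bacterial counterpart were higher (median log2 fold change 0.050), against 5 of 15 members that are specific to mitochondria or derived there (median −0.018). In the small subunit, 10 of 15 with a bacterial counterpart were higher (median 0.040), against 10 of 13 specific or derived members (median 0.13). That median is the value of Mrps36, which was below background and is now assigned to another complex. The 13 also include Mrps18a and Mrps18b, which are paralogues of a protein with a bacterial counterpart. Separate groups with higher knockout values were found in 5 of the 13 and in 0 of the 15 (6.74% of all genes), and 1 of the 5 was Mrps30. With 1 array left out the medians ran from 0.0011 to 0.071 and from −0.050 to 0.019 in the large subunit, and from 0.0079 to 0.056 and from 0.10 to 0.18 in the small subunit, in the same order of classes. None of these differences was tested.

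Across the 6 arrays the members had a median SD of 0.12 per gene, against 0.15 over all genes. With both group means above background it was 0.12 for members and 0.14 for all genes. Control 1 was the lowest of the 6 arrays in 33 of 71 members (46.5%, against 17.9% of all genes), 21 of the large and 12 of the small subunit. The median deviation of large subunit members from their gene means was −0.078, 0.0018 and 0.034 in controls 1, 2 and 3 and 0.062, −0.011 and −0.013 in the knockouts. For the small subunit it was −0.079, −0.020 and −0.0040 in controls and 0.020, 0.016 and 0.038 in knockouts. All knockout medians of the small subunit were thus above all control medians, while the large subunit medians overlapped. Without control 1, the large subunit median log2 fold change was −0.023 with 19 of 43 higher, and the small subunit median was 0.044 with 18 of 28 higher.

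**Figure D3:**
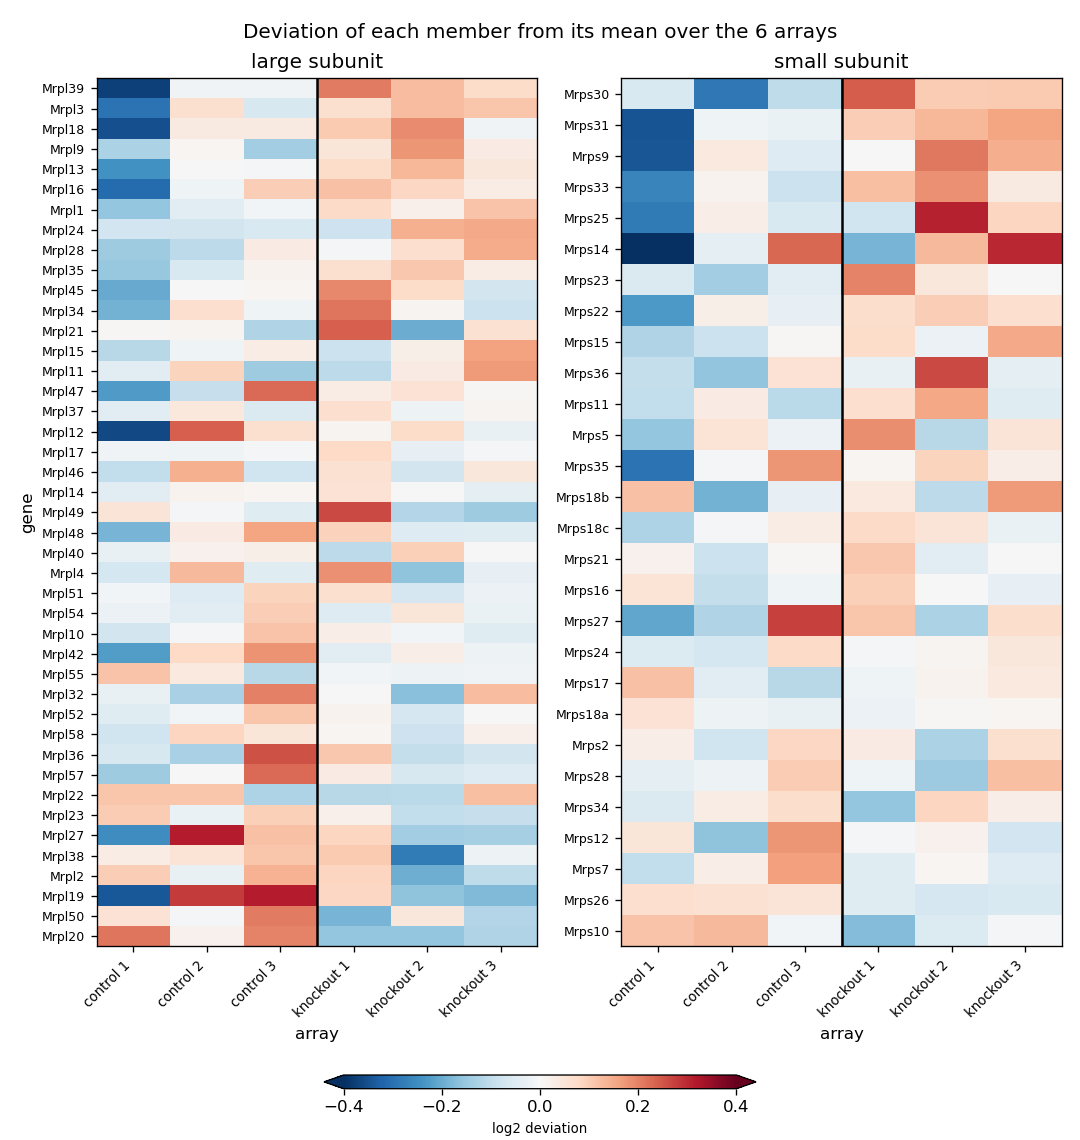
Deviation of each member from its own mean over the 6 arrays, in log2 units by colour (red above, blue below), with genes ordered by log2 fold change from top to bottom. Blue is concentrated in control 1, the lowest array for 33 of the 71 members.

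Respiratory complex subunits encoded in the nucleus, most of them from complexes that also hold proteins made by this ribosome, showed the same array more strongly. Control 1 was the lowest array for 60 of 79 (75.9%), with a median deviation of −0.22. In cytosolic ribosomal protein genes it was lowest for 12 of 66 (18.2%), with a median deviation of −0.0026. Their median log2 fold changes were 0.091 for respiratory subunits (64 of 79 higher) and 0.094 for cytosolic ribosomal proteins (53 of 66 higher), with 0 called in either. Without control 1 the respiratory median was 0.00044, with 40 of 79 higher, while the cytosolic median was 0.11, with 53 of 66 higher. Neither was tested against the mitochondrial ribosome. Genes of mitochondrial DNA itself were measured for 10 proteins, of which 9 were higher by at most 0.07 on the log2 scale, and control 1 was the lowest array for 10 of 10. Without it 6 of the 10 were higher. Apart from ND6, their levels of 13.79 to 14.34 reached the top of the scale, since no probe set exceeded 14.34 on any array, and differences there can be compressed.

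**Figure D4:**
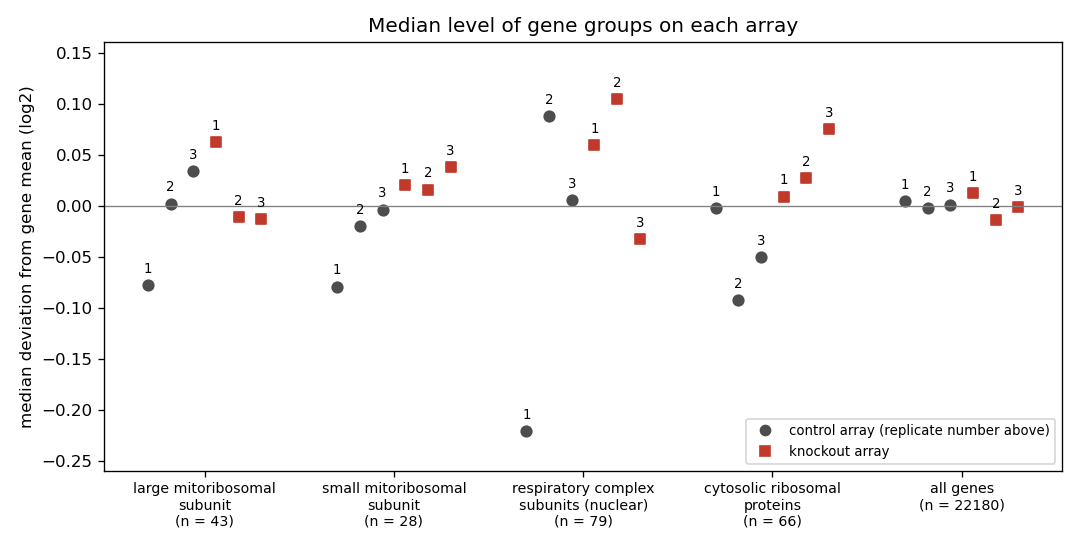
Median over the genes of a group of the deviation from each gene's mean (log2), for each of the 3 control (circles) and 3 knockout (squares) arrays, with replicate numbers above the points. Control 1 is lowest in both mitoribosomal subunits and, at −0.22, in the respiratory subunits, but not in cytosolic ribosomal proteins.

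Of the genes that build and serve the mitochondrial ribosome, 0 were called in any list. Translation factors were higher in 10 of 13 cases (median log2 fold change 0.12). The recycling factor Mrrf had 8.39, 8.38 and 8.59 in controls and 8.89, 8.68 and 8.79 in knockouts, without overlap (log2 fold change 0.34, limma adjusted p = 0.447). The initiation factor Mtif3 (0.31) and the elongation factor Tufm (0.22) also had separate groups (adjusted p = 0.453 and 0.676 in limma). Without control 1 the median of the translation factors was 0.053 with 9 of 13 higher, and Tufm had 0.13. Mitochondrial tRNA synthetases and related enzymes were higher in 14 of 19 cases (median 0.091), with the largest differences in Gatc (−0.28), Fars2 (0.24) and Yars2 (0.20). The Gatc value was −0.15 without knockout 2, and without control 1 Fars2 had 0.14 and Yars2 0.12. On these lists control 1 again had the lowest medians of the 6 arrays, −0.19 and −0.11.

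Assembly factors of the ribosome were divided, with 14 of 26 higher and a median of 0.011. Their median deviation was not lowest in control 1 (0.011) but in knockout 2 (−0.049). Malsu1, which keeps the large subunit from joining too early, had 9.11, 8.84 and 8.83 in controls and 8.54, 8.43 and 8.69 in knockouts (log2 fold change −0.38, limma adjusted p = 0.446). Its groups did not overlap. The rRNA methyltransferases Mettl15 (0.26) and Tfb1m (0.25) were the next largest. Without control 1 the Mettl15 value was 0.17, and the Tfb1m groups overlapped, with 0.10 without knockout 1. Of the ribosomal proteins that carry other symbols 3 were measured, Ptcd3 (0.24), Dap3 (0.01) and Gadd45gip1 (−0.02). The Ptcd3 value was 0.07 without control 1, the array where the median deviation of these 3 was lowest (−0.14). Mitochondrial DNA maintenance and transcription genes had a median deviation of 0.018 in control 1, the lowest being −0.093 in control 2. Their median log2 fold change was 0.017 (7 of 13 higher), led by Mterf2 (0.29), Top1mt (−0.23) and Tfam (−0.23). The values nearest 0 with 1 array left out were 0.16 for Mterf2 (control 1) and −0.10 for Top1mt (knockout 2). For Tfam it was −0.0055 (control 3). The Top1mt groups did not overlap, while those of Mterf2 and Tfam did.

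Regulators of nuclear mitochondrial genes were higher in 7 of 13 cases (median 0.094). Their median deviation was lowest in control 1 (−0.097). Ppargc1a, the coactivator PGC-1 alpha, had 10.23, 10.75 and 10.31 in controls and 10.81, 11.08 and 11.20 in knockouts, without overlap (log2 fold change 0.59, limma adjusted p = 0.351). Esrrg, an orphan nuclear receptor, had 0.42 with overlapping groups, and 0.21 without control 1. Myc had 0.26, and 0.15 without knockout 3. Nrf1 had −0.11 and Gabpa 0.09, the factors whose motifs were searched in the promoters above, and Yy1 had −0.15 (adjusted p = 0.855, 0.871 and 0.808 in limma). Without control 1 they had −0.05, 0.06 and −0.07.

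Another 7 genes of the family, Mrpl30, Mrpl33, Mrpl41, Mrpl43, Mrpl44, Mrpl53 and Mrps6, were covered only by probe sets that also name a neighbouring gene, and are no members here. Among them Mrpl44, a cardiomyopathy gene, shares its probe set with Wdfy1 (log2 fold change −0.02). The 9 probe sets of these genes had log2 fold changes from −0.29 to 0.11. The lowest was the probe set shared by Mrps6 and the inositol transporter gene Slc5a3, with 7.19, 7.34 and 7.49 in controls and 7.08, 7.12 and 6.96 in knockouts. Its groups did not overlap (log2 fold change −0.29, limma adjusted p = 0.558), and which gene gave the signal cannot be told. For 9 members a further probe set existed, and its difference had the same sign as the one used in 5.

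Array medians lay between 5.78 and 5.84 and correlations across genes, which are not independent replicates, between 0.985 and 0.992. The targeted gene Map3k7 had 8.47, 8.32 and 8.42 in controls and 8.20, 8.28 and 8.17 in knockouts, without overlap (log2 fold change −0.19, limma adjusted p = 0.686). All 10 skeletal muscle fibre markers were above background on average in both groups, with 8 of 10 lower and a median log2 fold change of −0.0084. Of these, 3 had separate, lower knockout values and 0 had separate, higher ones. Separate, lower values were found in 6.65% of all genes, and in 8.22% of those with both group means above background. The 3 were Myh1 (−0.49, limma adjusted p = 0.418), Tnnc2 (−0.20) and Acta1 (−0.05). Most of the 10 markers lay near the top of the scale. The Acta1 groups varied so little (SD 0.0075 and 0.0034) that a difference of −0.05 separated them (limma adjusted p = 0.936). Tendon cell markers were lower in 9 of 9 cases (median −0.68, 0 called), with summed linear levels of 2567 to 3770 in controls and 1366 to 2778 in knockouts, and knockout 3 was the lowest array for 7 of the 9. Endothelial markers shared the low control 1, lowest for 4 of 5. Their summed linear levels were 2206 in control 1, 2635 and 2857 in the other controls and 2482 to 2614 in knockouts. Summed adipocyte markers were also lowest in control 1 (2356, against 3028 to 4199 on the other arrays). Fabp4, with the highest level of them, weighs most in that sum. Control 1 was lowest for 3 of 6 adipocyte markers and knockout 2 for the other 3. The median deviation of these markers was lower in knockout 2 (−0.47) than in control 1 (−0.25). Control 1 was lowest for 0 of the fibro-adipogenic, macrophage, satellite cell and Schwann cell markers. Knockout 3 was lowest for 6 of 6 fibro-adipogenic markers, with a summed linear level of 5246. Next lowest in that sum was control 1 (7011), against 8014 to 9481 on the remaining arrays. Neutrophil markers were higher in 5 of 5 cases, 4 of them below background. The part of these cell types in the members' values was not tested. Of the 71 members, 68 had both group means above 5.85, the level below which 95% of olfactory and vomeronasal receptor genes lay. Mrpl27, Mrps14 and Mrps36 did not, so their differences are limited by low signal.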

How the data were processed

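Gene expression was measured in gastrocnemius muscle of 3 floxed control and 3 muscle-specific TAK1 knockout mice, 1 array each. The authors deposited log2 values for 41345 probe sets. Per the submitters' processing notes, the authors used RMA, oligo and limma, in versions and an order not given in the sources used here. The RMA method makes array distributions alike and compresses differences of dim transcripts. GEO's platform annotation gave 1 symbol for 23521 probe sets, several for 1814 and none for 16010, and those with 1 were used. All 71 member symbols matched the RefSeq table of GRCm38.p6 by Entrez identifier. A gene with several probe sets was represented by that with the highest mean over all arrays.

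The test was limma 3.58.1 under R 4.3.3 (knockout minus control, lmFit and eBayes, group means, two-sided, Benjamini-Hochberg over 22180 genes, threshold 0.05, no filter on dim genes). The level of background was the 95th percentile of 1390 olfactory and vomeronasal receptor genes, 5.85. No test was run over gene lists. The labels number the mice separately, and replicates are mice. The number of arrays limits the precision.

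Members were sorted into bacterial counterpart or mitochondria-specific or derived by a hand-written list from textbook knowledge. Members and lists were chosen with earlier results of these data known. The named members were the 4 highest and 4 lowest log2 fold changes and the 3 smallest p of each subunit, and 13 members fixed by role, of which Mrpl44 had no probe set of its own. Pathway genes named were up to 3 per list with the largest difference. Other members and regulators, and the markers of array and background, were named after their values were seen.

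The test was tried on 10 simulated tables of 22180 genes, 200 with a known change. It called 1.6% of 1.2-fold, 43.6% of 1.5-fold and 97% of 2-fold changes. The simulated noise was normal and independent between genes, with variances moderated by limma, so no array was shifted as a whole. The rates also depend on the number of genes set to change. Plots used matplotlib 3.10.9 in Python 3.11.15. Alternatives were quantile normalization, median centring, other probe set choices, filters on dim genes, other variance models, the replicate number as a block, leaving out each array (for pathway genes and comparison groups, chosen after seeing the data), and other assignments to the subunits.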

Additional observations from a re-analysis of the deposited data

How the results depend on the processing

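Under every alternative run, 0 members of either subunit passed an adjusted p of 0.05 (limma), and the number at an unadjusted p under 0.05 was 2 as reported and 1 to 6 over the alternatives. The count of called genes over the whole array was 21, and 53 with genes above the median level only, 45 when genes under the level of background were left out, 36 with an intensity trend and robust prior, 0 without variance moderation (1612 at an unadjusted p under 0.05), and 2 to 11 with 1 array left out. With the replicate number as a block it was 17, with 0 members called. The deviations of same-numbered arrays from their group means correlated at 0.079, 0.21 and −0.072, and those of differently numbered arrays at −0.22 to 0.14. With 3 arrays per group, these values cannot settle whether the numbers pair the arrays. With 1 array left out, the large subunit median ran from −0.023 to 0.048 (19 to 30 members higher) and the small subunit median from 0.044 to 0.090 (18 to 23 higher), so the large subunit median changed sign and the small did not. Other settings moved both medians by less than the spread of array medians within groups (0.051 and 0.029), although the large subunit median crossed 0 with the mean over probe sets or every probe set tested (−0.0038), shared probe sets added (−0.0021) and members with other symbols added (−6.4e-05). Of 273 values of named members under settings that keep all arrays, 2 changed sign, Mrps18a to 0.0058 under quantile normalization and Mrpl12 to −0.013 with the mean over probe sets. With 1 array left out, 8 of 150 did. The values then ran from −0.0035 to 0.13 for Mrpl11, −0.13 to 0.17 for Mrpl12, −0.13 to 0.0053 for Mrps7, −0.13 to 0.035 for Mrps12, −0.022 to 0.021 for Mrps18a, −0.0073 to 0.15 for Mrps18b and −0.079 to 0.042 for Mrps34. The cause was not tested.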
